A study of Oreochromis niloticus with 6 samples.

Results

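Glyceraldehyde-3-phosphate dehydrogenase (GAPDH), phosphoglycerate kinase (PGK) and phosphoglycerate mutase (PGAM) catalyse 3 consecutive steps in the lower part of glycolysis, and their transcripts were followed here in liver. The fish were Nile tilapia (Oreochromis niloticus) of the selected strain GIFT, short for Genetically Improved Farmed Tilapia. The loci were taken by a rule on gene names, set with earlier results of these data known. It takes every locus whose name begins with gapdh, pgk1, pgam1 or pgam2, and 7 of the 31872 loci in the deposited table matched. They were gapdh, gapdhs, GAPDH (1 of many), a pair of loci named pgk1, pgam1a and the joined locus pgam1b;exosc1, while no locus matched pgam2, the muscle mutase, which was therefore not analysed here. RNA was sequenced from 6 liver libraries taken at 96 h, 3 from hypoxia tanks (HG, titled HL, at a dissolved oxygen of 0.7 to 0.8 mg/L reached with nitrogen) and 3 from control tanks (CG, titled CL, at 5 mg/L). All fish were GIFT. By the study's text all were fasted before the experiment, and were anesthetized with tricaine and killed by cooling before the liver was sampled. No other treatment or allele was named. The study's text gives another oxygen level for HG and another number of fish per tank than the labels do. Neither source says whether a library holds 1 fish or several, so p-values measure only the spread between these libraries.

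In glycolysis GAPDH oxidizes glyceraldehyde phosphate and passes the electrons to NAD+, PGK uses the product to make ATP, and PGAM moves the remaining phosphate group to the neighbouring carbon so that enolase can act on it. All 3 reactions are reversible, and in liver the same enzymes also run backwards in gluconeogenesis, the synthesis of new glucose. Several genes of glycolysis, GAPDH and PGK1 among them in mammals, are known targets of the hypoxia-inducible factor (HIF), the transcription factor that accumulates when oxygen is low. gapdhs takes its name from the sperm isozyme of mammals. Fish carry duplicate copies of many of these genes, here pgam1a and pgam1b, and copies can be used in different tissues.

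The deposited table holds no sequences and no coordinates. The qRT-PCR primers of the study for gapdhs are shown because gapdhs had the largest change among these loci and is the only one of them for which the study designed an assay, and the capitals mark the last 5 bases, the end from which the copy is extended.
gapdhs forward primer: tacaccgaggatgagGTCGT
gapdhs reverse primer: tcccgtttcacttgtCTCGG
Each primer is 20 bases long with a G and C share of 55%, and its place in the genome was not looked up here.

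Levels are given as FPKM, a fragment count scaled for transcript length and library size, as the authors deposited them, so that genes of different length can be compared. Loci whose 6 libraries averaged 1 FPKM or more, 16423 in number, were compared between HG and CG with limma on log2(FPKM + 1), a scale that understates the change of weakly expressed genes, and p was adjusted over all of them by the Benjamini-Hochberg method. Of the 7 loci, 6 passed this minimum. DE loci were those with adjusted p below 0.05 whose log2 fold change was 1 or more in either direction. By that rule 16.6% of tested loci were DE loci (7.03% higher and 9.54% lower in HG), and 20.4% had an adjusted p under 0.05 at any fold change (8.27% higher and 12.1% lower). The DE loci numbered 2722, of which 1155 were higher and 1567 lower, but 1477 higher and 1226 lower when libraries were scaled by the median of their ratios to the mean library. That scaling put the median change over all loci tested at 0.01 (log2), against -0.14 without it, and without HG replicate 1 the DE loci numbered 1591. Libraries of 1 group had Pearson correlations of 0.868 to 0.918 across tested loci in HG and 0.873 to 0.901 in CG, against 0.661 to 0.785 between the groups, where genes are not independent replicates. The lowest values of the table put the relative depth of the other libraries at 0.711 to 0.928 of CG-1. HG and CG refer to the labels throughout, and every direction given rests on them. Loci listed as HIF targets outside glycolysis were mostly lower in the libraries labelled HG (17 of 21 tested loci lower, 1 higher, median log2 fold change -3.05). Low oxygen is known to induce many of these genes, though this is less established for egln2 and hif1al. The counts are of loci, and igfbp1a and igfbp1b each enter at more than 1 locus. Whether the labels are exchanged was not tested. Among these targets ddit4, an inhibitor of growth signaling, was at 0.284 ± 0.257 FPKM in HG and 586 ± 91.9 FPKM in CG (SD, n = 3 each), ero1a and egln3 had log2 fold changes of -5.67 and -6.45, and the higher one was pdk1, at 1.23. ddit4, egln1a, p4ha1b, p4ha2 and the tested igfbp1a loci had an HG mean under 1 FPKM. These lower loci reached the minimum mean only through CG, the group where they were high. Of 7 tested loci of the exocrine pancreas, whose cells lie within the liver of many fish, 7 were lower, with a summed level of 87.8 to 605 FPKM in HG and 1142 to 2383 FPKM in CG. In bulk tissue fewer cells of a type and less RNA per cell cannot be told apart.

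The members did not move as a block. Transcripts of gapdhs and of the joined pgam1b;exosc1 locus were lower in HG, to 0.056 and 0.078 of the CG mean on the FPKM scale, and those of pgam1a were higher, at 2.55 times the CG mean. gapdh was lower by a smaller step, at 0.6 of the CG mean, and the main pgk1 locus, at 0.667 of it, did not pass the test. Of the 6 tested loci, 4 had an adjusted p under 0.05, 3 of them lower, where 20.4% of all tested loci passed, and 3 were DE loci, 2 of them lower, where 16.6% of all tested loci were. HG and CG values were fully apart for 4 of the 6 loci, 3 lower and 1 higher, as they were for 43.5% of all tested loci (27% lower and 16.5% higher). Since each called locus had a mean above 2 FPKM in both groups, none of them reached the minimum of 1 FPKM through 1 group alone. This check covers the members only, and the pathway and marker lists hold loci whose mean was under 1 FPKM in 1 group.

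**Figure D1:**
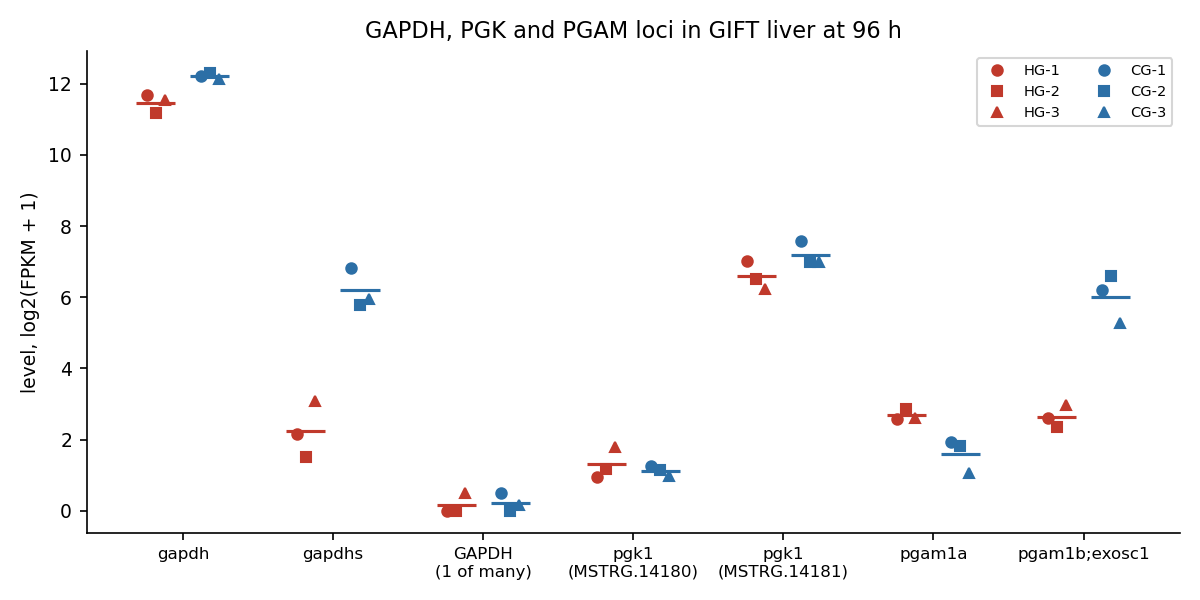
Levels of the 7 loci in the 6 libraries, on the vertical axis as log2(FPKM + 1), with HG in red left of CG in blue, 1 symbol per replicate number and a bar at the group mean of the log2 values. The groups stand apart for gapdh, gapdhs, pgam1a and pgam1b;exosc1, and pgam1a is the only one of these 4 that is higher in HG.

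gapdh (MSTRG.13282), the general GAPDH of most tissues and a common reference gene in qRT-PCR, was by far the most abundant of these loci. Its level was 3267, 2311 and 2988 FPKM in HG-1, HG-2 and HG-3, against 4728, 5076 and 4479 FPKM in CG-1, CG-2 and CG-3. Every HG library lay below every CG library, and HG-2 was the lowest. The means were 2856 ± 492 FPKM in HG and 4761 ± 299.5 FPKM in CG (SD, n = 3 each), a log2 fold change of -0.75 (standard error 0.19, 95% interval -1.19 to -0.31, adjusted p = 0.0333 from limma). gapdh was the 16th to 22nd most abundant locus of an HG library and the 10th to 12th of a CG library, and it made up 0.606% ± 0.0947 of all FPKM in HG and 0.984% ± 0.05005 in CG (SD, n = 3 each). The fold change stayed below the size set for DE loci, and 21.3% of tested loci had an estimate as low or lower. Of the 4 calls it was the one lost most often. It ended in 12 of 16 alternatives, among them each of the 6 that left out 1 library (adjusted p = 0.0628 to 0.0835 from limma) and the scaling by median of ratios, under which the log2 fold change was -0.55 (adjusted p = 0.159 from limma, 0.0158 to 0.377 over all alternatives).

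gapdhs (MSTRG.6191), the second GAPDH, had the largest change of the set. It was at 3.49, 1.85 and 7.43 FPKM in HG-1, HG-2 and HG-3, against 112, 54.3 and 61.4 FPKM in CG-1, CG-2 and CG-3. The highest HG library, HG-3, was far below the lowest CG library, CG-2, and within each group the highest library had at least double the lowest. The means were 4.25 ± 2.87 FPKM in HG and 76.0 ± 31.6 FPKM in CG (SD, n = 3 each), a log2 fold change of -3.94 (standard error 0.46, 95% interval -5.03 to -2.85, adjusted p = 0.00306 from limma). Only 70 of the 16423 tested loci, gapdhs included, had an estimate as low or lower. It stayed past the threshold in 15 of 16 alternatives and lost it in the Ballgown-style linear model. In that model 0 loci of the table passed after adjustment and 2618 had p under 0.05 before it. Among the 15 was the minimum mean of 10 FPKM, which gapdhs reached only through CG.

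Genes of testis and germ cells, where the mammalian gapdhs is used, were low. Of 13 loci found for that marker list, 10 had a mean under 1 FPKM, their summed level was 4.46 to 7.76 FPKM in HG and 3.95 to 11.6 FPKM in CG, and none of the 3 that could be tested passed limma (0 of 3 at an unadjusted p under 0.05). The 3 tested loci were copies of ddx4, spata4 and piwil2.

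GAPDH (1 of many) (ENSONIG00000007002), a further copy with the same enzyme annotation, was at the edge of detection. It was listed at 0, 0 and 0.412 FPKM in HG-1, HG-2 and HG-3 and at 0.412, 0 and 0.129 FPKM in the CG libraries in the same order. The groups overlapped, and the locus was below the minimum for testing. Near-identical copies can share reads, so its values are uncertain beside the far higher level of gapdh.

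The balance between the GAPDH genes followed from these values. Within a library gapdh exceeded gapdhs 937, 1249 and 402 times in HG-1, HG-2 and HG-3, against 42.1, 93.5 and 72.9 times in CG-1, CG-2 and CG-3. gapdhs made up 0.145% ± 0.0902 of the summed GAPDH level in HG and 1.58% ± 0.660 in CG (SD, n = 3 each), so that the sum, 2860.0 ± 493 FPKM in HG and 4837 ± 295 FPKM in CG (SD, n = 3 each), was set by gapdh in both groups. The log2 ratio of gapdh to gapdhs was 3.19 higher in HG, with no overlap of the groups (two-sided exact permutation test p = 0.1, 0.117 adjusted over 7 sums and ratios). With 3 libraries against 3, p = 0.1 is the smallest that an exact permutation test can give, so no sum or ratio could pass 0.05.

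PGK, the first step that yields ATP, was represented by 2 loci with the name pgk1 and neighbouring locus numbers. MSTRG.14181, which holds the annotated transcript, was at 129.6, 91.0 and 73.8 FPKM in HG-1, HG-2 and HG-3, against 190.2, 126 and 125 FPKM in CG-1, CG-2 and CG-3. Mean levels were 98.1 ± 28.6 FPKM in HG and 147 ± 37.3 FPKM in CG (SD, n = 3 each). HG-1 lay above CG-2 and CG-3, so the groups overlapped, and the log2 fold change of -0.59 did not pass (95% interval -1.30 to 0.12, adjusted p = 0.199 from limma). That interval includes no change and also the estimate for gapdh. MSTRG.14180, an assembled transcript with no enzyme annotation, was at 0.948, 1.24 and 2.45 FPKM in HG-1, HG-2 and HG-3 and at 1.39, 1.21 and 0.987 FPKM in CG-1, CG-2 and CG-3. HG-3 was the highest and HG-1 the lowest of all 6 libraries, and the log2 fold change of 0.17 did not pass (95% interval -0.50 to 0.84, adjusted p = 0.693 from limma). Without HG-3 that estimate was -0.07. Whether MSTRG.14180 is part of the same gene as MSTRG.14181 was not tested. In both groups gapdh exceeded the main pgk1 locus by factors that overlapped, 25.2, 25.4 and 40.5 times in HG and 24.9, 40.4 and 35.7 times in CG.

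The mutase loci pgam1a and pgam1b;exosc1 moved in opposite directions, where the second also holds exosc1, in a share that the table does not give. pgam1a (MSTRG.14705) was at 4.99, 6.28 and 5.16 FPKM in HG-1, HG-2 and HG-3, against 2.80, 2.56 and 1.07 FPKM in CG-1, CG-2 and CG-3. All HG libraries were above all CG libraries, and CG-3 was the lowest. The means were 5.47 ± 0.701 FPKM in HG and 2.15 ± 0.936 FPKM in CG (SD, n = 3 each), a log2 fold change of 1.08 (standard error 0.27, 95% interval 0.43 to 1.73, adjusted p = 0.0352 from limma), and 9.71% of tested loci had an estimate as high or higher. The direction held in 15 of 15 alternatives (log2 fold change 0.81 to 1.41), while the call ended in 8 of them. Those 8 included 5 of the 6 that left out 1 library. The alternatives that left out HG-1, HG-2, HG-3, CG-2 and CG-3 gave adjusted p of 0.0888, 0.0926, 0.0838, 0.0589 and 0.0590 from limma.

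pgam1b;exosc1 (MSTRG.19113) was at 5.05, 4.10 and 6.86 FPKM in HG-1, HG-2 and HG-3, against 72.4, 94.99 and 37.9 FPKM in CG-1, CG-2 and CG-3. The highest HG value was well below the lowest CG value, which was again that of CG-3. Mean levels were 5.34 ± 1.40 FPKM in HG and 68.4 ± 28.7 FPKM in CG (SD, n = 3 each), a log2 fold change of -3.38 (standard error 0.37, 95% interval -4.26 to -2.50, adjusted p = 0.00256 from limma). As low or lower were 108 of the 16423 tested loci. Like gapdhs, this locus stayed past the threshold in 15 of 16 alternatives and lost it in the Ballgown-style linear model (log2 fold change -3.10 to -3.75 over all 16). It too reached the minimum mean of 10 FPKM, 1 of these alternatives, only through CG.

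**Figure D2:**
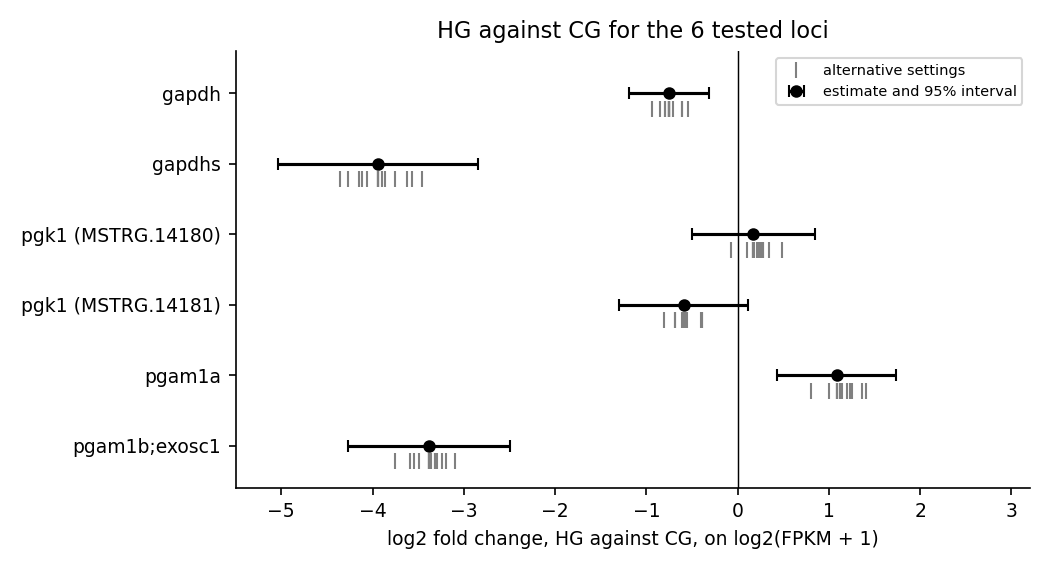
Log2 fold changes of the 6 tested loci, HG against CG, computed on log2(FPKM + 1), as the limma estimate with its 95% interval (black) and the estimates under the alternative settings (grey ticks). The ticks of gapdhs and pgam1b;exosc1 stay below -3, those of pgam1a lie between 0.81 and 1.41, and only those of the weak pgk1 locus MSTRG.14180 lie on both sides of 0.

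The linear ratio of the mutase loci within a library does not depend on a scaling factor of that library. pgam1a over pgam1b;exosc1 was 0.987, 1.53 and 0.751 in HG-1, HG-2 and HG-3, against 0.0387, 0.0270 and 0.0283 in CG-1, CG-2 and CG-3. The HG libraries thus held the 2 loci at about equal levels, and in the CG libraries pgam1a was the far weaker one. Its share of the summed PGAM level was 51.0% ± 8.86 in HG and 3.04% ± 0.600 in CG (SD, n = 3 each). Both shares count the whole joined locus, exosc1 included, as PGAM, so the share of pgam1a among mutase transcripts alone is not known. On the log2(FPKM + 1) scale the ratio was 4.47 higher in HG, with no overlap of the groups (two-sided exact permutation test p = 0.1, the smallest possible, 0.117 adjusted over 7 sums and ratios), and the difference was 4.23 to 5.00 over all its alternatives. The summed PGAM level was 10.04, 10.4 and 12.02 FPKM in HG-1, HG-2 and HG-3, against 75.2, 97.6 and 39.0 FPKM in CG-1, CG-2 and CG-3, a difference in means of -59.8 FPKM (two-sided exact permutation test p = 0.1, adjusted 0.117). The rise of pgam1a was small beside the fall of the joined locus.

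**Figure D3:**
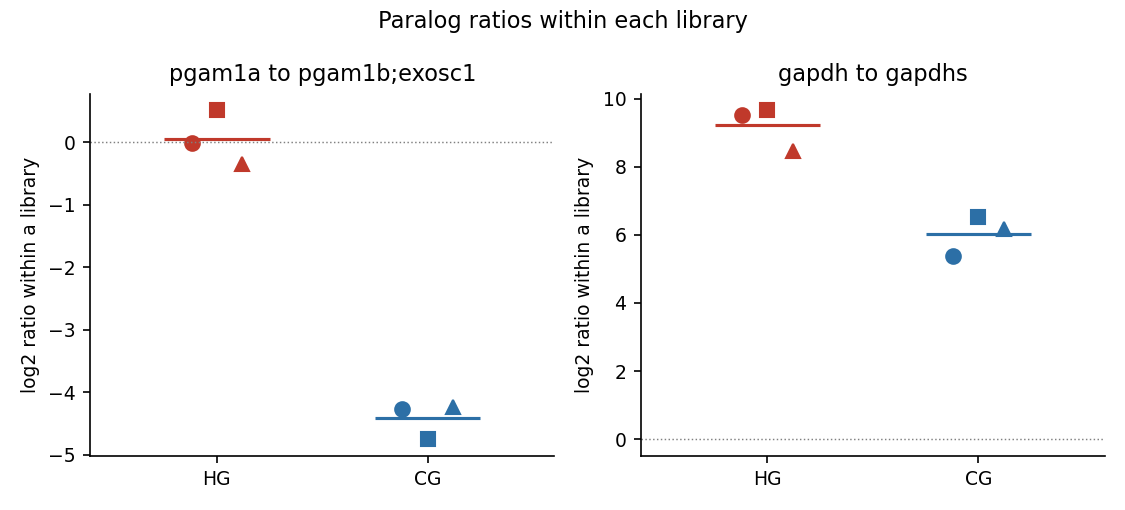
Log2 ratio of pgam1a to pgam1b;exosc1 (left) and of gapdh to gapdhs (right) within each library, on log2(FPKM + 1), with HG left of CG, circles, squares and triangles for replicates 1, 2 and 3, a bar at the group mean and a dotted line at equal levels. Both ratios are higher in all HG libraries than in any CG library, and the mutase ratio is near 0 in HG.

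The level of MSTRG.19113 cannot be split between its genes. The locus joins 3 transcripts, 2 of them from the Ensembl annotation, and carries both the mutase annotation of pgam1b and that of exosc1, a cap subunit of the RNA exosome, the complex that trims and degrades RNA from its end. In the RefSeq annotation of the assembly O_niloticus_UMD_NMBU, which may not be the build of the table, exosc1 and pgam1b are direct neighbours. It has no entry under the symbol pgam1a, so that name comes from the deposited table. The gene on the other side of pgam1b is pi4k2a. pi4k2a also stands next to the joined locus in the table, as MSTRG.19112, at 3.57, 4.84 and 3.88 FPKM in HG-1, HG-2 and HG-3 and 4.75, 4.58 and 4.35 FPKM in the CG libraries, and it did not pass (log2 fold change -0.13, adjusted p = 0.636 from limma).

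The other subunits and helpers of the RNA exosome were weakly expressed. Of 13 tested loci of that list, 1 was lower, none was higher (1 higher at an unadjusted p under 0.05) and 12 did not pass. The median log2 fold change was 0.11, beside -0.14 over all tested loci. Of all tested loci 12.1% were lower and 8.27% higher, so these counts do not set the list apart. The lower one was skiv2l2 (MSTRG.14246), a helicase that feeds RNA to the nuclear exosome, at 5.14 ± 1.18 FPKM in HG and 25.1 ± 3.61 FPKM in CG (SD, n = 3 each; log2 fold change -2.09, adjusted p = 0.00255 from limma). Core subunits that did not pass include exosc9 (MSTRG.10644), with 7.48, 6.91 and 11.2 FPKM in HG and 6.15, 7.96 and 5.85 FPKM in CG, and exosc7 (MSTRG.15229), with 2.92, 2.78 and 4.46 FPKM in HG and 5.14, 4.71 and 4.78 FPKM in CG. No other exosc locus of the list exceeded 11.2 FPKM in any library, below the joined locus in CG. In HG the joined locus, at 5.05, 4.10 and 6.86 FPKM, lay within the range of these loci, with exosc10 at 5.19, 5.20 and 6.87 FPKM. How the joined level divides between pgam1b and exosc1 was not tested.

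By mean level in HG the order of the set was gapdh, the main pgk1 locus, pgam1a, pgam1b;exosc1, gapdhs, the weak pgk1 locus and GAPDH (1 of many). In HG the libraries of pgam1a, pgam1b;exosc1 and gapdhs overlapped, so their order among themselves is not beyond the spread, and the highest library of the weak pgk1 locus also exceeded the lowest of gapdhs. The order in CG was gapdh, the main pgk1 locus, gapdhs, pgam1b;exosc1, pgam1a, the weak pgk1 locus and GAPDH (1 of many). There gapdhs and pgam1b;exosc1 overlapped, and so did pgam1a and the weak pgk1 locus, while the other neighbours in the order did not overlap. gapdhs and pgam1b;exosc1 thus lay close together in both groups. The log2 ratio of pgam1b;exosc1 to gapdhs was 0.39 ± 0.47 in HG and -0.17 ± 0.84 in CG (SD, n = 3 each; two-sided exact permutation test p = 0.3, adjusted 0.3 over 7 sums and ratios).

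The rest of glycolysis was measured in the same libraries. Of 19 tested loci of the pathway outside these members, 12 were lower, none was higher and 7 did not pass (13 lower and 1 higher at an unadjusted p under 0.05), with a median log2 fold change of -1.51 beside -0.14 over all tested loci. Lower were 12.1% of all tested loci. The 3 with the smallest adjusted p were aldocb, eno1a and ldha. aldocb (MSTRG.9339), an aldolase, was at 6.65 ± 3.25 FPKM in HG and 237 ± 55.7 FPKM in CG (SD, n = 3 each; log2 fold change -5.01, adjusted p = 0.00108 from limma). eno1a (MSTRG.7398), 1 of several loci for enolase, the enzyme that takes up the product of PGAM, was at 7.47 ± 5.05 FPKM in HG and 416 ± 59.8 FPKM in CG (SD, n = 3 each; log2 fold change -5.79, adjusted p = 0.00115 from limma). ldha (MSTRG.2933), a lactate dehydrogenase subunit, had a log2 fold change of -2.20 (adjusted p = 0.00227 from limma). The groups did not overlap for any of these 12 loci, but they were picked by their low adjusted p, so this is no further result. Of all tested loci 27% lay apart in that direction. Among the 12, a copy of hk2, a copy of hk1 and pfkpa had an HG mean under 1 FPKM, so they reached the minimum only through CG. HG-3 was the highest HG library for 9 of the 12, as it was for gapdhs and pgam1b;exosc1. CG-1 was the highest CG library for 10 of the 12 and for gapdhs, whereas pgam1b;exosc1 was highest in CG-2. The same counts over all tested loci were not taken, so they are a description only.

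Summed over the loci of each enzyme, the levels of the 11 steps from hexokinase to lactate dehydrogenase show where GAPDH, PGK and PGAM stand in the pathway. This summary was added after the values were seen and carries no test. The GAPDH step had the highest sum in both groups, and PGK was the 6th highest in both. PGAM was the 10th of 11 in HG, with 10.8 ± 1.06 FPKM, and the 8th in CG, with 70.6 ± 29.6 FPKM (SD, n = 3 each), and its ratio of HG to CG, 0.153, was the lowest of the 11 steps. Most of the PGAM sum in CG, 68.4 of 70.6 FPKM, came from the locus joined with exosc1, so the rank of the mutase alone is not known. The next lowest ratios were 0.201 for lactate dehydrogenase and 0.253 for triose phosphate isomerase, the step before GAPDH. Enolase, the step after PGAM, was at 365 ± 100.3 FPKM in HG and 771 ± 49.3 FPKM in CG (SD, n = 3 each). Among its loci eno1a was lower in HG, whereas eno3 (MSTRG.13868), named after the muscle isozyme of mammals, had 471, 311 and 279 FPKM in HG and 278, 431 and 350.03 FPKM in CG and did not pass (log2 fold change -0.01, adjusted p = 0.982 from limma). The groups did not overlap for the sums of 8 steps, 7 lower and 1 higher, and overlapped for 3. Among single tested loci 43.5% lay apart (27% lower and 16.5% higher). The step with the higher sum was pyruvate kinase, at 43.8 ± 12.5 FPKM in HG and 25.1 ± 2.53 FPKM in CG (SD, n = 3 each). Its loci went opposite ways. PKLR (MSTRG.13657) was at 42.1 ± 12.3 FPKM in HG and 12.5 ± 8.43 FPKM in CG and did not pass (log2 fold change 1.88, adjusted p = 0.0521 from limma). pkma (MSTRG.233) was lower, at 1.67 ± 0.632 FPKM in HG and 12.5 ± 8.87 FPKM in CG (SD, n = 3 each; log2 fold change -2.17, adjusted p = 0.0214 from limma). The hexokinase sum of HG-3, 325 FPKM, was set by gck, the liver glucokinase, at 317 FPKM. In HG-1 and HG-2 gck was at 3.56 and 1.49 FPKM, within sums of 6.75 and 5.13 FPKM.

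**Figure D4:**
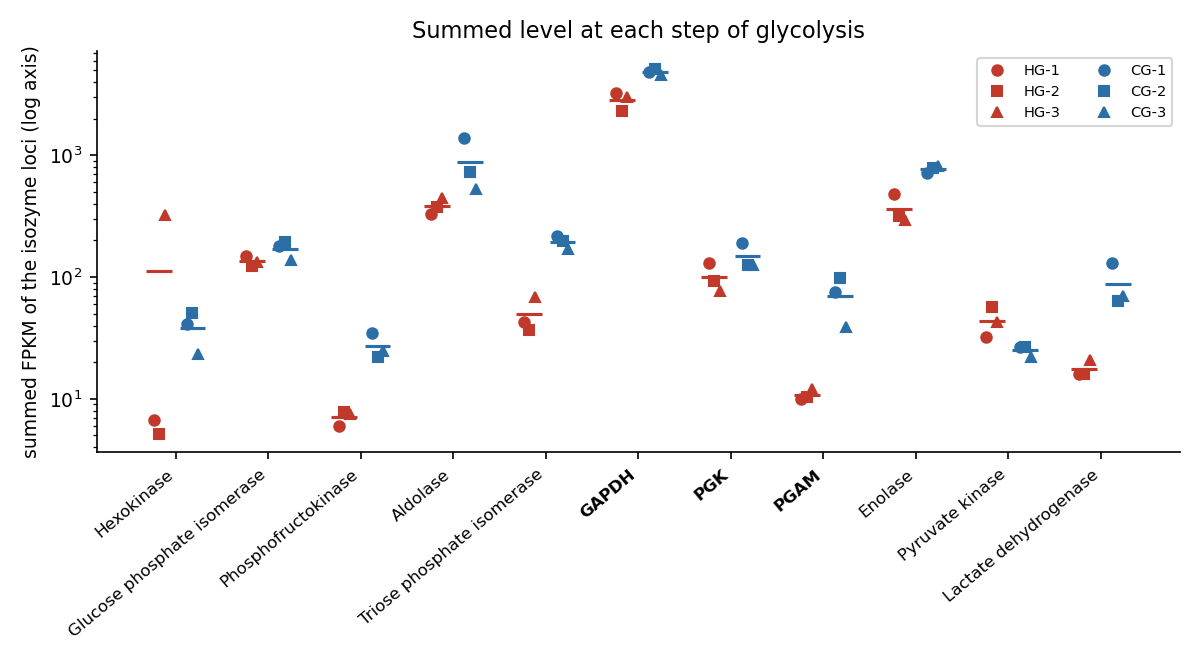
Summed FPKM of the loci of each enzyme from hexokinase to lactate dehydrogenase, on a log axis, with HG in red left of CG in blue, 1 symbol per replicate number and a bar at the group mean. GAPDH is the highest step in every library, and the HG libraries of PGAM lie at 10.04 to 12.02 FPKM, below the 39.0 to 97.6 FPKM of CG.

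GAPDH, PGK and PGAM also serve gluconeogenesis, and of 13 tested loci that belong to that pathway and not to glycolysis 5 were lower, none was higher (7 lower and 0 higher at an unadjusted p under 0.05) and 8 did not pass, with a median log2 fold change of -1.02, where 12.1% of all tested loci were lower. The smallest adjusted p were those of pck1 and pck2, the phosphoenolpyruvate carboxykinases, and fbp1b, a fructose bisphosphatase. pck1 (MSTRG.11058) was at 0.0475, 0 and 0.0189 FPKM in HG, against 1042, 171 and 116 FPKM in CG. It reached the minimum mean for testing only through CG. pck2 (MSTRG.24943) was at 112 ± 36.0 FPKM in HG and 578 ± 127 FPKM in CG (SD, n = 3 each), and fbp1b (MSTRG.12294) at 336 ± 94.7 FPKM in HG and 726 ± 11.8 FPKM in CG (SD, n = 3 each). Under median of ratios scaling 2 of the 13 loci were lower. g6pca.2, among the lower loci, and fbp1a, among those that did not pass, each enter these counts at more than 1 locus.

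Some enzymes that lead into or out of the triose and glycerate phosphates were higher in HG. Of 13 tested loci 5 were higher, none was lower (10 higher and 0 lower at an unadjusted p under 0.05) and 8 did not pass, with a median log2 fold change of 0.67, where 8.27% of all tested loci were higher. tkfc (MSTRG.21125), a kinase that makes the substrate of GAPDH from free glyceraldehyde, was at 68.5 ± 4.79 FPKM in HG and 16.2 ± 5.16 FPKM in CG (SD, n = 3 each; log2 fold change 2.06, adjusted p = 0.00487 from limma). minpp1a (MSTRG.896), a phosphatase of inositol phosphates that in other vertebrates also acts on bisphosphoglycerate, was at 50.8 ± 9.28 FPKM in HG and 17.6 ± 4.60 FPKM in CG (SD, n = 3 each; log2 fold change 1.49, adjusted p = 0.0121 from limma). psph (MSTRG.23138), which completes the synthesis of serine that starts from the product of PGK, was at 2.76 ± 0.711 FPKM in HG and 0.586 ± 0.147 FPKM in CG (SD, n = 3 each; log2 fold change 1.23, adjusted p = 0.0143 from limma). It reached the minimum mean for testing only through HG, the group where it was high.

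Markers of some cell types also differed between HG and CG. Beside the 7 exocrine pancreas loci, 3 of 8 tested bile duct loci and 5 of 10 tested endothelial loci were lower in HG. Summed levels were 185 to 234 FPKM in HG and 446 to 537 FPKM in CG for bile duct. For endothelium they were 23.8 to 28.4 FPKM in HG and 57.5 to 65.1 FPKM in CG. Most of the bile duct sum was krt8 (MSTRG.11793), at 163 ± 20.4 FPKM in HG and 444 ± 43.3 FPKM in CG. The next most abundant, alcama (MSTRG.26277), ran the other way, at 19.1 ± 8.88 FPKM in HG and 6.79 ± 4.96 FPKM in CG (SD, n = 3 each), and did not pass (adjusted p = 0.139 from limma). The hepatocyte list summed to 53280 to 64530 FPKM in HG and 42210 to 57150 FPKM in CG, with 6 of 23 loci higher and 2 lower. For comparison, 8.27% of all tested loci were higher and 12.1% lower. Its most abundant loci were apoa1a (21067 ± 2764 FPKM in HG and 8277 ± 1139 FPKM in CG) and hpx (7372 ± 1578 FPKM in HG and 20940.2 ± 1565 FPKM in CG; SD, n = 3 each). Muscle markers, 16 of 17 under a mean of 1 FPKM, summed to 1.601 to 2.29 FPKM in HG and 2.49 to 6.92 FPKM in CG. Leukocyte markers summed to 25.5 to 51.7 FPKM in HG and 60.1 to 139 FPKM in CG (1 of 9 tested loci higher, 2 lower), and erythrocyte markers to 35.9 to 65.8 FPKM in HG and 21.6 to 77.3 FPKM in CG (2 of 7 higher, 1 lower). The part of cell type shares in the levels of gapdhs, pgam1a and pgam1b;exosc1 was not tested.

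Loci with patterns like those of the members were found among 8601 tested loci with a single gene symbol, by the root mean square difference of log2(FPKM + 1) over the 6 libraries after centring each locus on its own mean. A locus picked in this way has the same direction, and much of the same order of libraries, by choice, so both are given as a description. Closest to gapdhs was zfand5a (MSTRG.8001) at 0.214, with 3.16, 2.80 and 9.65 FPKM in HG and 163, 74.8 and 69.3 FPKM in CG, followed by stoml3b, abca1b, prdx1 and mknk2a at 0.240 to 0.379. Like gapdhs, zfand5a was highest in HG-3 among the HG libraries and in CG-1 among the CG libraries. For pgam1b;exosc1 the closest was smox (MSTRG.15015), spermine oxidase, at 0.239, with 3.87, 2.71 and 2.97 FPKM in HG and 48.8, 50.0 and 24.6 FPKM in CG, then tor3a, nfkb2, granzyme and ndrg1a at 0.314 to 0.333. pgam1a was closest to gda (MSTRG.15445), guanine deaminase, at 0.111, with 37.4, 44.6 and 34.4 FPKM in HG and 24.8, 18.8 and 13.1 FPKM in CG, then to fbxw5, pcyt1bb, acp6 and cs, the citrate synthase, at 0.133 to 0.184. For gapdh the list was sec61g, a subunit of the channel that moves proteins into the ER, at 0.0550, then ppwd1, eif1axb, cse1l and rnf8 at 0.0636 to 0.0922. The main pgk1 locus was closest to cry1ab, a clock protein, at 0.0767, then to aplp2, ciapin1, deptor and arhgef15 at 0.103 to 0.135, and the weak one to smpd1, jak3, txnl4b, naga and man2b2 at 0.0686 to 0.0979. The lists of the 6 loci shared no gene. The measure takes in the size of the change, which differed between the 6 loci, so this too is a description only.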

How the data were processed

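Liver RNA of 6 libraries was measured, 3 labelled HG and 3 labelled CG. The authors sequenced poly(A) RNA from both ends, assembled the mapped reads with StringTie (the submitters' processing notes also name HISAT) and deposited FPKM values per locus, with versions and genome build not given in the sources used here. All 6 sample columns were used. Values were taken as log2(FPKM + 1), and loci averaging 1 FPKM or more were tested in R 4.3.3 by limma 3.58.1, which let the variance follow the mean level (2.86 prior degrees of freedom) and two-sided p adjusted by the Benjamini-Hochberg method. The fit was tested on simulated data. Sums and ratios within a library were compared by exact permutation over all 20 regroupings. Python 3.11.15, numpy 2.4.6, pandas 2.3.3 and matplotlib 3.10.9 served for tables and plots. The members and the 5 pathway and 8 marker lists were chosen with earlier results of these data known. Named genes were every member, in each pathway list the 3 smallest adjusted p per direction, in each marker list at most the 2 most abundant loci, and per tested member the 5 loci most alike. The other exosome subunits, eno3, gck, PKLR, pkma, the 3 testis loci and pi4k2a were named after their values were seen. Alternatives covered the pseudocount, the minimum, scaling, variance model, replicate block and leaving out each library. Read counts are not used here, so the counting error of single values is unknown and the spread of 3 replicates is the error given.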

Additional observations from a re-analysis of the deposited data

How the results depend on the processing

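The direction of gapdh, gapdhs, the main pgk1 locus, pgam1a and pgam1b;exosc1 was the same in every alternative run for them, and only the weak pgk1 locus MSTRG.14180 turned, to a log2 fold change of -0.069 without HG replicate 3. The count of DE loci was 1143 (529 higher, 614 lower) with a minimum mean of 10 FPKM, where fewer loci are tested, and 0 (0 higher, 0 lower) in the Ballgown-style linear model, with 2618 loci at an unadjusted p under 0.05. Leaving out 1 library at a time gave 1591 to 2377 DE loci (774 to 969 higher, 817 to 1408 lower). In the Ballgown-style model gapdh, gapdhs, pgam1a and pgam1b;exosc1 had log2 fold changes of -0.94, -3.46, 1.37 and -3.32 and did not pass (adjusted p = 0.251, 0.256, 0.317 and 0.231). gapdh also did not pass at -0.75 with a pseudocount of 0.1, without a minimum, in limma without trend or with the replicate block (adjusted p = 0.0581, 0.377, 0.0521 and 0.116), nor at -0.55 with median of ratios scaling (adjusted p = 0.159). pgam1a, at 1.085, did not pass without a minimum or with the replicate block (adjusted p = 0.0817 and 0.0641). Without 1 library the log2 fold changes were -0.86 to -0.61 for gapdh, -4.35 to -3.57 for gapdhs, -0.07 to 0.34 and -0.81 to -0.39 for the pgk1 loci, 0.81 to 1.25 for pgam1a and -3.75 to -3.10 for pgam1b;exosc1. Replicate numbers did not pair the libraries (correlations of deviations 0.0365, -0.102 and -0.0810 for numbers 1, 2 and 3), and the block gave 1960 DE loci. Under median of ratios scaling 1 locus of the glycolysis list and 1 of the RNA exosome list were higher, and 2 of the gluconeogenesis list were lower. With the minimum mean of 10 FPKM no value could be had for pgam1a and the weak pgk1 locus. The cause of these shifts was not tested.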
